A study of Mus musculus with 16 samples.

Results

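GABA-A receptor subunit genes were followed through an array experiment on mouse brain. The 7 genes are Gabra2, Gabra3, Gabra4, Gabra5, Gabrb1, Gabrb2 and Gabrg1. They are a part of the family, chosen by name with earlier results of these data known, and other GABA-A subunits are described further below. Every probe set that the platform annotation assigns to a single one of these symbols was used. That gave 15 probe sets of the 45037 tested, and 7 of the 17097 genes that some probe set names alone. Gabrb2 has 5 probe sets, Gabra2, Gabra3, Gabra4 and Gabrg1 have 2 each, and Gabra5 and Gabrb1 have 1 each.

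The animals were 16 male mice of 2 inbred strains, DBA/2J (substrain DBA/2JRccHsd) and A/J (substrain A/JOlaHsd), aged 7 to 8 weeks. The antipsychotic risperidone, a blocker of D2 and 5-HT2A receptors, was given intraperitoneally at 1 mg/kg once a day on 3 days. The 4 groups of 4 mice were DBA/2J risperidone, DBA/2J control, A/J risperidone and A/J control, with 1 array of total RNA per mouse. The control mice carry the label untreated, while the common protocol speaks of saline, and no group carries a transgene. Values are log2 levels per probe set, so a difference of 1 is a doubling of the signal, and the number of arrays per group, 4, limits the precision of each.

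GABA-A receptors are pentameric chloride channels through which GABA inhibits neurons, most often built from alpha, beta and gamma subunits. The alpha subunit largely sets where the receptor sits and which benzodiazepine-site drugs act on it, the beta subunit takes part in binding GABA and in trafficking, and the gamma subunit is needed for clustering at synapses. The projection neurons of the striatum release GABA themselves and receive it from each other, from local interneurons and from the pallidum. Dopamine, the transmitter whose D2 receptor risperidone blocks, is known to modulate GABA-A receptors in these cells.

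Some arrays went against their labels or stood apart. A DBA/2J share was computed for each array as the median position of its strain marker probe sets between the means of A/J and DBA/2J control arrays. It was 27.9%, 36.2%, 0.584% and 39.0% on A/J risperidone replicates 1 to 4, and 87.6% on DBA/2J risperidone replicate 1. On the other 11 arrays it lay between 94.6% and 103.2% in DBA/2J and between -2.30% and 0.944% in A/J. DBA/2J control replicate 4 correlated with the other arrays at 0.970 to 0.979, while each of the others reached at least 0.991 with some array. The tissue is labelled striatum, and 9 of 10 measured markers of striatal projection neurons lay above the array median on all 16 arrays. The remaining marker, Drd2, the gene of the D2 receptor, lay below the median on all of them (log2 level 3.62 to 4.90). Of the striatal markers above the median, Rgs9 read closest to it (5.73 to 6.27, array medians 5.66 to 5.71) and Bcl11b highest (8.95 to 9.40). Markers of cortical excitatory neurons lay above the median as well, 8 of 9 on all arrays. Their mean level was the higher one on every array, 7.78 to 8.27 against 6.43 to 7.09 for the striatal projection neuron markers. How much cortex the samples held was not tested.

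The data show 1 difference past the test among the 15 subunit probe sets. Gabrg1, which encodes the gamma1 subunit, was lower in DBA/2J control mice, set against A/J control mice, by its weaker probe set (log2 difference -0.55 ± 0.13 SE, n = 4 each). The call was lost in 8 of 26 alternative settings, 4 of them by leaving out 1 array. Its other probe set lay lower in the same comparison without passing. Both Gabrg1 probe sets were also higher in every DBA/2J risperidone array than in every DBA/2J control array, and neither passed the test there. For the alpha and beta subunits no comparison passed, and differences were at most 0.385 in size on the log2 scale. In whole tissue, fewer cells that express a gene and less of its RNA per cell cannot be told apart.

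**Figure D1:**
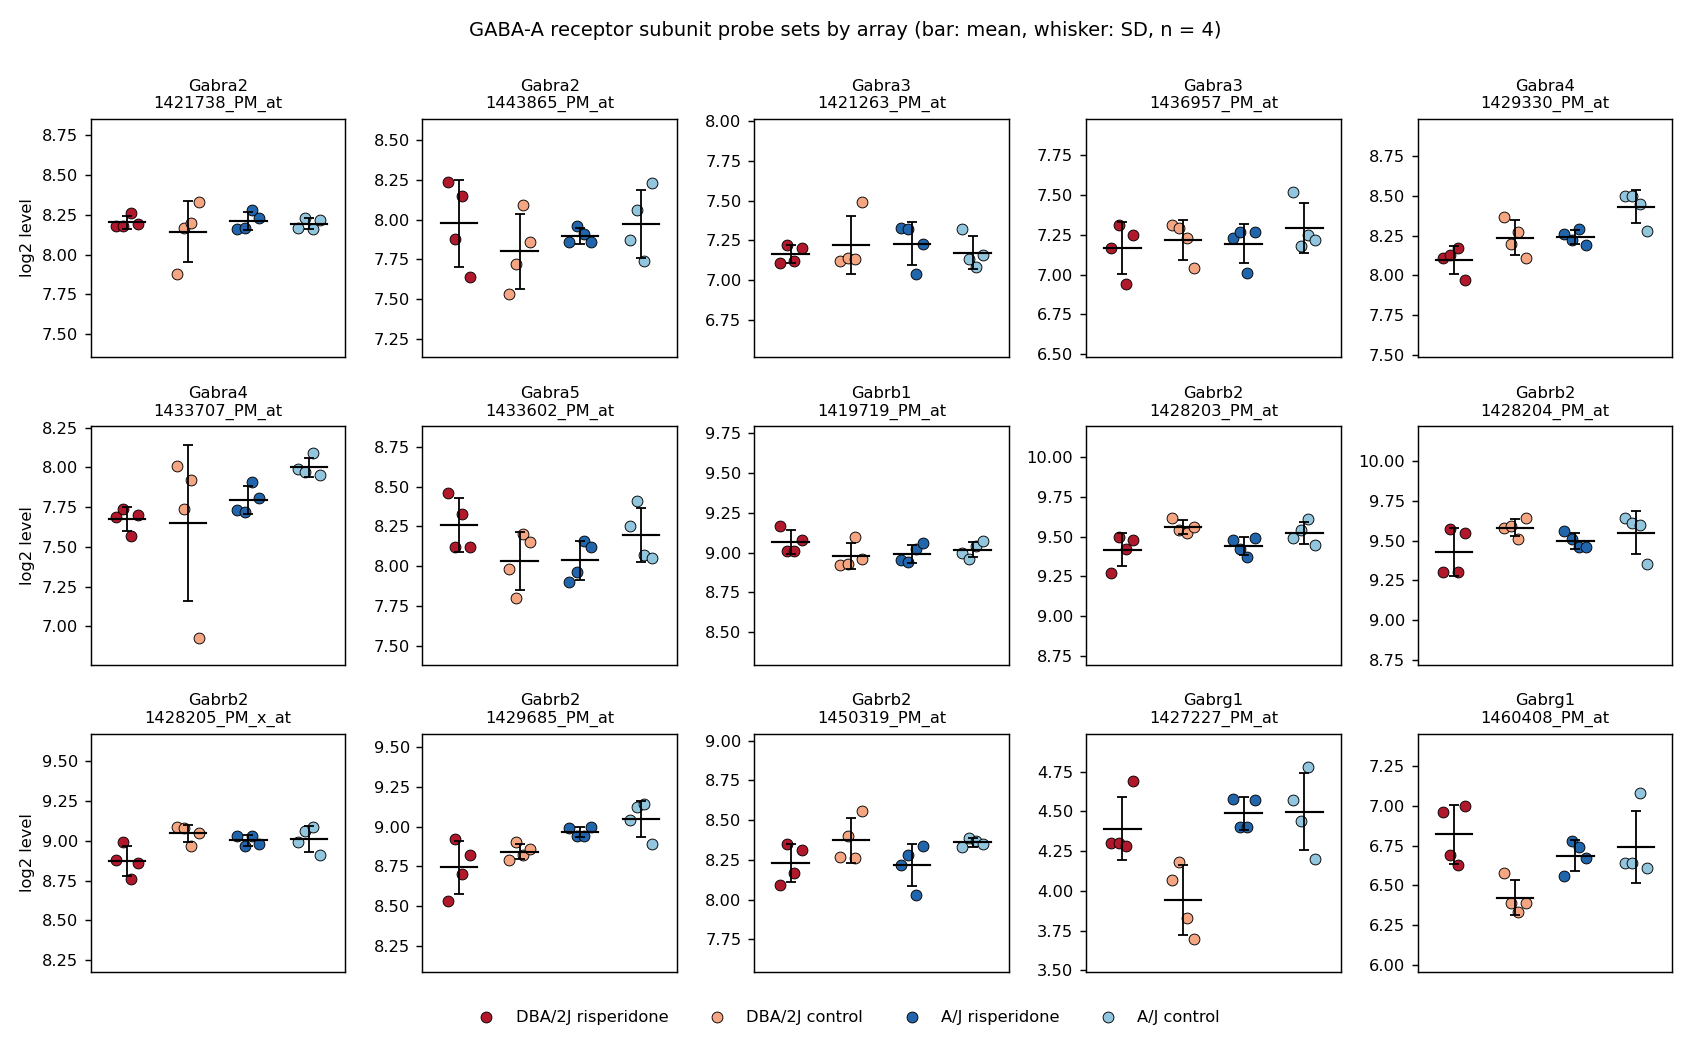
Log2 level of each of the 15 probe sets on each of the 16 arrays, in panels of equal height (1.5 log2 units), with points for arrays, bars for group means and whiskers for SD (n = 4). The 4 DBA/2J control arrays are the low points in the Gabrg1 1427227_PM_at panel (3.70 to 4.18), and 1 DBA/2J control array at 6.93 stands apart in the Gabra4 1433707_PM_at panel.

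Counts over the 15 probe sets were set against all 45037. After risperidone in DBA/2J mice, 0 of 15 passed an adjusted p under 0.05 (background 0.04%), 7 were higher and 8 lower (50.8% of all probe sets were lower), and 3 had an unadjusted p under 0.05 (background 10.7%). After risperidone in A/J mice, 0 of 15 passed (background 0%), 2 were higher and 13 lower, and 1 had an unadjusted p under 0.05 (background 5.51%). The median difference of the 15 was -0.05 after risperidone in DBA/2J (-0.01 over all probe sets) and -0.08 after risperidone in A/J (0 over all probe sets). The direction was uneven in A/J, where 49.3% of all probe sets were lower, and no subunit probe set passed. The 15 probe sets measure 7 genes on the same arrays and are not independent. By highest probe set, 6 of 7 genes were lower in A/J, against 9161 of all 17097 genes. For the mean of both effects, 0 of 15 passed (background 0.0266%) and 5 had an unadjusted p under 0.05 (background 6.9%), 2 of them higher and 3 lower. For the interaction, the effect in DBA/2J less that in A/J, 0 of 15 passed (background 0%) and 3 had an unadjusted p under 0.05 (background 9.19%), all 3 above 0. These comparisons share arrays and are not independent of each other.

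Between strains, 1 of 15 probe sets passed in control mice, and it was lower in DBA/2J (background 3.87% in either direction, 1.86% lower). In control mice 5 of 15 had an unadjusted p under 0.05 (background 17.7%), all 5 lower in DBA/2J, and 10 of 15 were lower at any size against 46.2% of all probe sets. In risperidone mice 0 of 15 passed (background 0.782%) and 1 had an unadjusted p under 0.05 (background 9.43%), while 10 of 15 were lower at any size against 47.9%. The median difference was -0.08 in control mice and -0.03 in risperidone mice, against 0.01 and 0.01 over all probe sets.

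**Figure D2:**
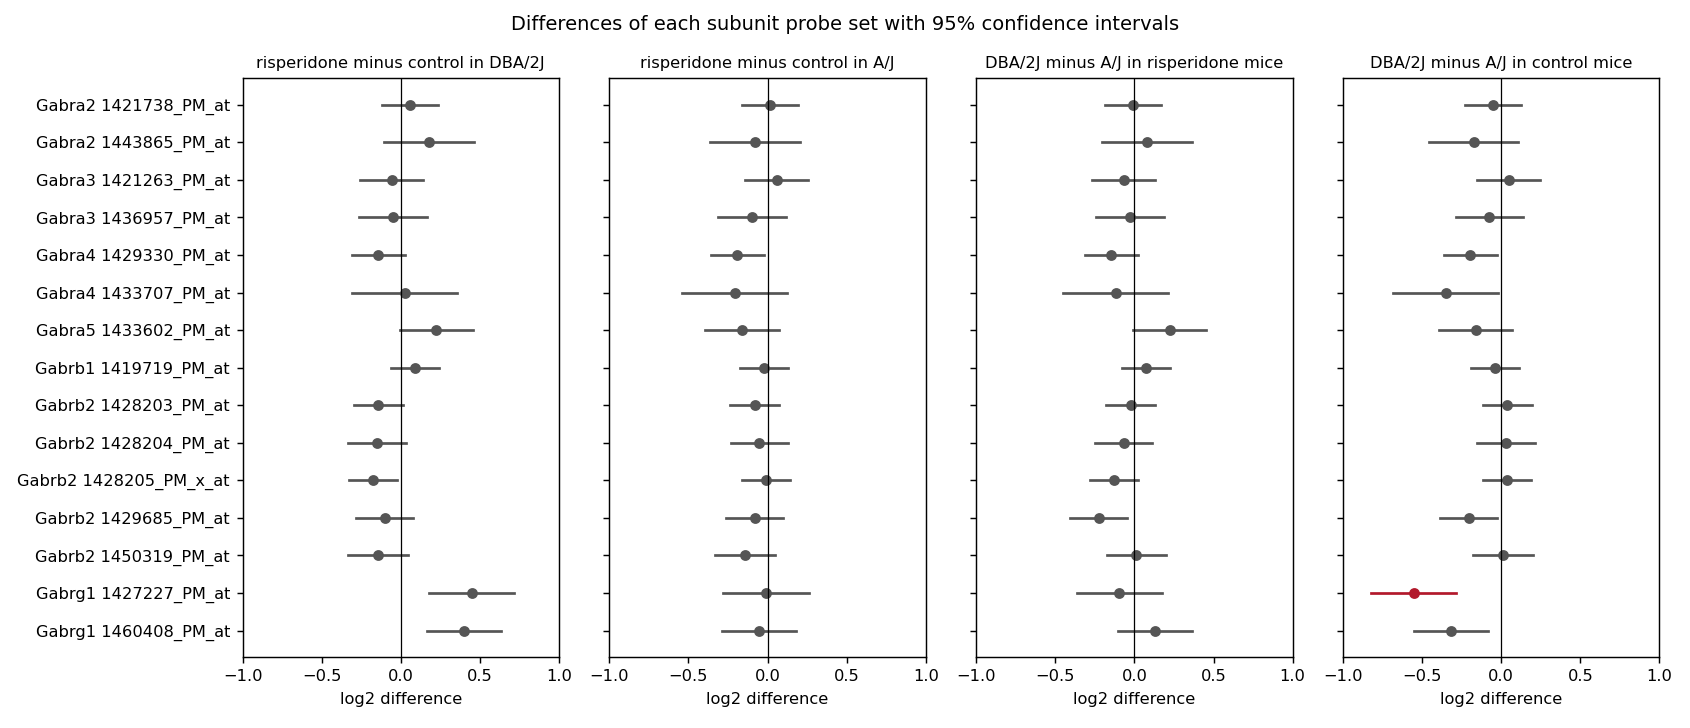
Log2 difference of each probe set (x axis) with its 95% confidence interval, in 4 panels for risperidone minus control in DBA/2J and in A/J and for DBA/2J minus A/J in risperidone and in control mice. The single red point, past an adjusted p of 0.05, is Gabrg1 1427227_PM_at at -0.55 in control mice; the other intervals are grey.

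Gabra4 encodes the alpha4 subunit, which joins the delta subunit in receptors outside synapses that respond to ambient GABA. Its stronger probe set, 1429330_PM_at, read 8.11, 8.13, 8.17 and 7.97 in DBA/2J risperidone mice, against 8.37, 8.20, 8.27 and 8.11 in DBA/2J control mice. It read 8.26, 8.22, 8.29 and 8.19 in A/J risperidone mice, against 8.50, 8.50, 8.45 and 8.28 in A/J control mice. Treated arrays were mostly the lower ones in both strains, and in each strain 1 control array overlapped with them. The difference was -0.14 ± 0.08 SE in DBA/2J (adjusted p = 0.526) and -0.19 ± 0.08 in A/J (adjusted p = 0.832). The mean of both effects was -0.17 ± 0.06 (95% interval -0.29 to -0.05, unadjusted p = 0.00814, adjusted p = 0.566), lower in both strains without passing.

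The second Gabra4 probe set, 1433707_PM_at, read 7.69, 7.74, 7.57 and 7.70 in DBA/2J risperidone mice, against 8.01, 7.74, 7.92 and 6.93 in DBA/2J control mice. In A/J it read 7.73, 7.72, 7.91 and 7.81 after risperidone, against 7.99, 7.97, 8.09 and 7.95 in control mice. In A/J every treated array lay below every control array, which held for 2.08% of all probe sets, while DBA/2J control replicate 4 alone was below all treated arrays of its strain. The difference was 0.03 ± 0.16 in DBA/2J and -0.21 ± 0.16 in A/J (adjusted p = 0.972). Without DBA/2J control replicate 4 the DBA/2J difference turned to -0.215 ± 0.08 (adjusted p = 0.436). Without the 3 A/J risperidone arrays of intermediate strain markers, the A/J differences of Gabra4 were -0.14 ± 0.14 for 1429330_PM_at and -0.09 ± 0.27 for 1433707_PM_at, where the 1 treated A/J array left was assumed to vary like the other groups.

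Both Gabra4 probe sets also lay lower in DBA/2J when the strains were compared. In control mice the difference was -0.195 ± 0.08 for 1429330_PM_at (adjusted p = 0.205) and -0.35 ± 0.16 for 1433707_PM_at (adjusted p = 0.254). Without DBA/2J control replicate 4 the second of these was -0.11. In risperidone mice the 4 DBA/2J arrays lay below the 4 A/J arrays for 1429330_PM_at (-0.145 ± 0.08, adjusted p = 0.616), a separation seen for 3.53% of all probe sets in that direction.

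Gabra5 encodes the alpha5 subunit, best known from extrasynaptic receptors of the hippocampus. Its probe set read 8.46, 8.12, 8.33 and 8.12 in DBA/2J risperidone mice, against 7.98, 7.80, 8.20 and 8.15 in DBA/2J control mice. In A/J it read 7.90, 7.96, 8.16 and 8.12 after risperidone, against 8.25, 8.41, 8.07 and 8.05 in control mice. The groups overlapped in both strains, and the treated arrays reached highest in DBA/2J but not in A/J. The difference was 0.225 ± 0.11 in DBA/2J (adjusted p = 0.479) and -0.16 ± 0.11 in A/J (adjusted p = 0.96). The interaction was 0.385 ± 0.157 (95% interval 0.06 to 0.71, unadjusted p = 0.0244, adjusted p = 0.491) and did not pass. With thalamus, cortex and choroid plexus marker scores as covariates the DBA/2J difference of Gabra5 was 0.04 ± 0.15 and the interaction 0.25 ± 0.18, and without the 5 arrays that stand apart (3 of A/J risperidone, DBA/2J risperidone replicate 1 and DBA/2J control replicate 4) the interaction was 0.23.

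Gabra2 and Gabra3 encode the alpha2 and alpha3 subunits, which carry much of the anxiolytic and muscle-relaxing action of benzodiazepines. Gabra2 1421738_PM_at read between 7.88 and 8.33 over the 16 arrays, with group means that differed by at most 0.06 in the 4 comparisons between groups. The other Gabra2 probe set, 1443865_PM_at, ranged from 7.53 to 8.24, and its differences ran from -0.175 ± 0.135 (DBA/2J minus A/J in control mice) to 0.18 ± 0.135 (risperidone minus control in DBA/2J). Gabra3 read between 7.04 and 7.49 by 1421263_PM_at and between 6.94 and 7.52 by 1436957_PM_at. Its differences between groups ran from -0.10 to 0.06, each within 1 SE of 0, and every group of Gabra2 and Gabra3 overlapped with the one it was set against. Over these 4 comparisons the 95% intervals spanned -0.46 to 0.46 for Gabra2 1443865_PM_at and -0.23 to 0.235 for Gabra2 1421738_PM_at. For Gabra3 they spanned -0.27 to 0.26 by 1421263_PM_at and -0.31 to 0.19 by 1436957_PM_at.

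Among the beta subunits, Gabrb2 was lower after risperidone by all 5 of its probe sets in each strain, and none passed. The beta2 subunit is a major partner of alpha1 in synaptic receptors. Differences lay between -0.175 and -0.10 in DBA/2J (adjusted p 0.412 or more) and between -0.14 and -0.01 in A/J. The 5 probe sets measure 1 gene on the same arrays, so they are not 5 independent observations. Cortex excitatory neuron markers moved with Gabrb2 in DBA/2J: 7 of 9 were lower after risperidone (median -0.20, 0 passed). Their mean level was 7.92 to 8.14 in DBA/2J risperidone mice and 8.15 to 8.27 in DBA/2J control mice. In A/J they did not: 5 of 9 were higher and 4 lower after risperidone (median 0.01, 0 passed). With thalamus, cortex and choroid plexus scores as covariates, the DBA/2J differences of Gabrb2 were -0.03 (1428203_PM_at), -0.01 (1428204_PM_at), -0.04 (1450319_PM_at) and, with the direction turned, 0.05 (1429685_PM_at). The other probe set, 1428205_PM_x_at, lay at -0.21 to -0.13 in DBA/2J over the 28 alternative settings, against -0.175 in the main fit. It kept its direction in all 28, as did 1428203_PM_at, 1428204_PM_at and 1450319_PM_at. In A/J, where 1428205_PM_x_at differed by -0.01, it kept its direction in 21 of 28. Without DBA/2J risperidone replicate 1, Gabrb2 1428203_PM_at differed by -0.09 and 1429685_PM_at by -0.03 in DBA/2J, and without DBA/2J control replicate 4, 1450319_PM_at differed by -0.08. The r of the probe sets' deviations from group means over 16 arrays lay between 0.19 and 0.82 for the 10 pairs.

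Gabrb2 1428203_PM_at read 9.27, 9.50, 9.42 and 9.48 in DBA/2J risperidone mice, against 9.62, 9.54, 9.52 and 9.56 in DBA/2J control mice. All treated arrays lay below all control arrays in DBA/2J, as for 2.51% of all probe sets. In A/J the same probe set read 9.48, 9.42, 9.37 and 9.49 after risperidone, against 9.49, 9.54, 9.61 and 9.45 in control mice, and the groups overlapped. Its difference was -0.14 ± 0.07 in DBA/2J (adjusted p = 0.496) and -0.08 ± 0.07 in A/J (adjusted p = 0.987). DBA/2J risperidone replicate 1 was the lowest array of its group for 4 of the 5 probe sets, tied with replicate 3 for 1 of them.

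One Gabrb2 probe set, 1429685_PM_at, stood apart from the other 4 in the strain comparison. It read 8.53, 8.92, 8.70 and 8.82 in DBA/2J risperidone mice, against 8.99, 8.94, 8.94 and 9.0 in A/J risperidone mice. It read 8.79, 8.90, 8.82 and 8.86 in DBA/2J control mice, against 9.04, 9.12, 9.14 and 8.89 in A/J control mice. The strains did not overlap in risperidone mice (-0.225 ± 0.086, adjusted p = 0.377) and touched in control mice (-0.205 ± 0.086, adjusted p = 0.215). The other 4 probe sets lay between -0.13 and 0.04 in these comparisons. Whether a sequence variant lies under these probes was not tested.

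Gabrb1, the gene of the beta1 subunit, had the narrowest spread. Its single probe set read between 9.01 and 9.17 in DBA/2J risperidone mice, 8.92 and 9.10 in DBA/2J control mice, 8.94 and 9.06 in A/J risperidone mice and 8.96 and 9.07 in A/J control mice. All groups overlapped, and differences ran from -0.04 to 0.09 with an SE of 0.07. The 95% intervals exclude differences beyond -0.19 and 0.24.

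The gamma1 subunit encoded by Gabrg1 can take the place of the commoner gamma2 and gives receptors with a weaker response to benzodiazepines. It is known from amygdala, septum and pallidum neurons and from glia such as the Bergmann cells of the cerebellum. Gabrg1 lies on chromosome 5 (GRCm38.p6, chr5:70751047-70842617, reverse strand) in a cluster with Gabra2, Gabra4 and Gabrb1. The 4 genes span 1.4 Mb with 1 other protein-coding gene, Cox7b2, between them. Gabra4 and Gabrb1 run away from each other and overlap by 388 bases at their starts, and 116 kb separate Gabrg1 from Gabra2. The other members lie on chromosome 7 (Gabra5), chromosome 11 (Gabrb2) and chromosome X (Gabra3).

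**Figure D3:**
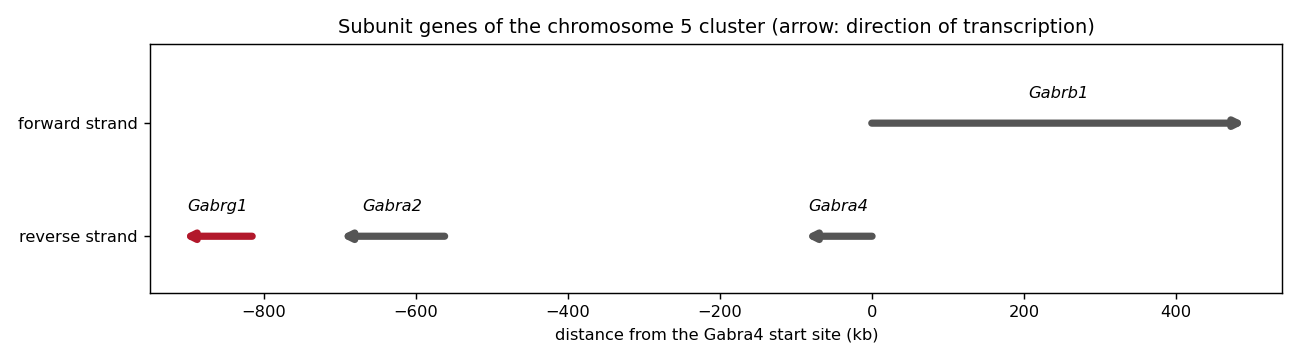
The 4 subunit genes of the chromosome 5 cluster, drawn to scale as arrows in the direction of transcription, by distance from the Gabra4 start site in kb (x axis) and by strand (y axis). Gabrg1, in red, and Gabrb1 lie at opposite ends of the cluster, and Gabrb1 is the only gene on the forward strand.

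The 250 bases before the annotated start are shown for Gabrg1, the gene with the probe set past the test, and for Gabra2, its nearest neighbour, whose probe sets did not pass. Both are on the reverse strand and read 5′ to 3′ towards the gene (chr5:70842618-70842867 and chr5:71095850-71096099, RefSeq, GRCm38.p6), with each CG dinucleotide in capitals.
Gabrg1: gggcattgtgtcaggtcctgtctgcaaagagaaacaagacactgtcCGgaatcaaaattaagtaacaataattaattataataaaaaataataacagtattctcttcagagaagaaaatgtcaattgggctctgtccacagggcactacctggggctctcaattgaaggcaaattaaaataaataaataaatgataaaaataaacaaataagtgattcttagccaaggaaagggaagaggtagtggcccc
Gabra2: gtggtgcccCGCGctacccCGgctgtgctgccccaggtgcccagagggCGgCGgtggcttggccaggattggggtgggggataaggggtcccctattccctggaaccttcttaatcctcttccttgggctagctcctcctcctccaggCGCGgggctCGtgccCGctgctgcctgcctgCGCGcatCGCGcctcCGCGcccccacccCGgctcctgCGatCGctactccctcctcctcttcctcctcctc
The Gabrg1 window has 35.6% G and C and 1 CG, and the Gabra2 window 70% and 18. Over all 32851 promoter windows in the table, the 250 bases before the start had a median of 52.4% and 6. A lower G and C content than that of Gabrg1 was found in 5.41% of windows, and a lower one than that of Gabra2 in 90.8%. The neighbours thus sit near opposite ends of the range of base composition. Over 300 bases, 50 of them past the start, 11 windows of the 7 genes were searched on both strands. The letters GCGNGGGCG, bound by Egr factors, were found in 2 windows, 1 each of Gabrb1 and Gabrb2 (5.55% of all windows), and TGACGTCA, bound by CREB, in 0 (1.79%). TATAAA was found in 3 (13.6%), of which 1 was Gabrb2, at -30 in the direction of the gene. The other 2 were overlapping windows of Gabra3, which hold the same site, read opposite to the gene.

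Gabrg1 1427227_PM_at read 4.07, 4.18, 3.83 and 3.70 in DBA/2J control mice, against 4.57, 4.44, 4.78 and 4.20 in A/J control mice. All DBA/2J control arrays lay below all A/J control arrays, by 0.02 at the closest. The means were 3.95 ± 0.22 in DBA/2J and 4.50 ± 0.24 in A/J (SD, n = 4 each), a difference of -0.55 ± 0.13 SE (95% interval -0.82 to -0.28, limma, adjusted p = 0.0187). This is a weak probe set, with a mean level of 4.33 at the 21.7th percentile of all probe sets, below the array medians of 5.66 to 5.71. Whether it lies above background was not tested, and Drd2 (3.62 to 4.90) and Lhx8 (3.51 to 4.39) read in the same range. The adjusted p was 0.0801 with only the 8 arrays compared, and between 0.0503 and 0.0761 without A/J control replicate 1 or 3 or DBA/2J control replicate 3 or 4.

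The stronger Gabrg1 probe set, 1460408_PM_at, read 6.58, 6.39, 6.33 and 6.39 in DBA/2J control mice, against 6.64, 6.64, 7.08 and 6.61 in A/J control mice. The strains again did not overlap, which held in this direction for 4.42% of all probe sets. The difference was -0.32 ± 0.11 (95% interval -0.55 to -0.09, adjusted p = 0.129) and did not pass. Without A/J control replicate 3, the array at 7.08, it was -0.21. For the mean of the 2 probe sets of Gabrg1 the difference was -0.44 (adjusted p = 0.0268).

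After risperidone the strain difference was not seen, but A/J risperidone replicates 1, 2 and 4 had intermediate strain markers (DBA/2J share 27.9% to 39.0%). Over all probe sets 0.782% passed in this comparison, against 3.87% in control mice. A/J risperidone replicate 3, whose DBA/2J share was 0.584%, read 4.40 and 6.74. Both values lay within the range of the DBA/2J risperidone arrays (4.28 to 4.69 and 6.63 to 7.00), but this is 1 array. Over the alternative settings the Gabrg1 difference in risperidone mice lay between -0.194 and 0.023 for 1427227_PM_at and between 0.033 and 0.205 for 1460408_PM_at. The part of the intermediate arrays in this was not tested. The 1427227_PM_at probe set read 4.30, 4.30, 4.28 and 4.69 in DBA/2J risperidone mice, against 4.58, 4.40, 4.40 and 4.57 in A/J risperidone mice (-0.10 ± 0.13, adjusted p = 0.887). The 1460408_PM_at probe set read 6.96, 6.69, 6.63 and 7.00 in DBA/2J risperidone mice, against 6.56, 6.78, 6.74 and 6.67 in A/J risperidone mice (0.13 ± 0.11, adjusted p = 0.784). The groups overlapped for both, and the 95% intervals still allow -0.365 to 0.175 for the weaker probe set and -0.10 to 0.37 for the stronger one.

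Set against DBA/2J control mice, all 4 DBA/2J risperidone arrays were higher for both Gabrg1 probe sets, a separation that 1.89% of all probe sets showed in that direction. The difference was 0.45 ± 0.13 (95% interval 0.18 to 0.72, unadjusted p = 0.0026, adjusted p = 0.246) for 1427227_PM_at and 0.40 ± 0.11 (0.16 to 0.63, unadjusted p = 0.00218, adjusted p = 0.237) for 1460408_PM_at. Neither passed over 45037 probe sets. Without the 5 arrays that stand apart, these Gabrg1 differences were 0.40 (adjusted p = 0.663) and 0.34 (adjusted p = 0.689). In A/J, where treated replicates 1, 2 and 4 had intermediate strain markers, the differences were -0.01 ± 0.13 and -0.06 ± 0.11, and the groups overlapped. The interaction was 0.46 ± 0.18 (adjusted p = 0.48) and 0.45 ± 0.16 (adjusted p = 0.435), so a difference in response between strains was not shown. The same 4 low DBA/2J control arrays enter the strain difference, the drug difference and the interaction, which are therefore not separate observations. In order of group means, DBA/2J control was lowest for both probe sets, and the means of the other 3 groups lay within 0.11 of each other for 1427227_PM_at and 0.13 for 1460408_PM_at.

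Marker genes of other regions and cell types moved with Gabrg1 in some comparisons, but not in all. The mean log2 level of 10 thalamus markers was 5.84 to 6.28 in DBA/2J risperidone mice, 5.74 to 5.96 in DBA/2J control mice, 6.05 to 6.55 in A/J risperidone mice and 5.80 to 7.08 in A/J control mice. All 10 were lower in DBA/2J controls, set against A/J controls (median -0.43, 2 passed). After risperidone in DBA/2J 8 of 10 were higher (median 0.22, 0 passed). Between risperidone mice 9 of 10 were still lower in DBA/2J (median -0.24, 0 passed), while Gabrg1 differed by -0.10 and 0.13 without passing. The transcription factor genes Lef1 and Gbx2, which are among the 10, lay below the array median on all arrays. A/J control replicate 3, with the score of 7.08, was also the highest of all 16 arrays for both Gabrg1 probe sets.

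With the thalamus score as a covariate, the strain difference in control mice was -0.43 ± 0.15 (adjusted p = 0.196) for Gabrg1 1427227_PM_at and -0.15 ± 0.12 (adjusted p = 0.61) for 1460408_PM_at. The risperidone difference in DBA/2J was then 0.40 ± 0.13 (adjusted p = 0.355) and 0.33 ± 0.10 (adjusted p = 0.326). With thalamus, cortex and choroid plexus scores together, the strain difference of Gabrg1 was -0.46 ± 0.18 (adjusted p = 0.337) and -0.06 ± 0.14 (adjusted p = 0.901). The risperidone difference in DBA/2J was 0.48 ± 0.20 and 0.22 ± 0.145 in that fit (adjusted p = 0.896 for both). The strain call did not hold with these covariates, and the size of the weaker probe set's difference moved less than that of the stronger one.

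Markers of glia and of other cells differed between strains as well. In DBA/2J control mice, set against A/J control mice, 9 of 9 oligodendrocyte markers were lower (median -0.545, 2 passed) and 7 of 7 microglia markers were lower (median -0.32, 2 passed), while 5 of 10 astrocyte markers were lower (median -0.01, 1 passed). The mean level of the oligodendrocyte markers was 7.99 to 8.38 in DBA/2J control mice and 8.50 to 9.17 in A/J control mice. That of the microglia markers was 6.08 to 6.32 in DBA/2J and 6.59 to 6.76 in A/J. Between risperidone mice 8 of 9 oligodendrocyte markers (median -0.18, 0 passed) and 7 of 7 microglia markers (median -0.12, 1 passed) were lower in DBA/2J. Of the astrocyte markers 4 of 10 were lower there (median 0.05, 0 passed). Of the striatal projection neuron markers 7 of 10 were lower in DBA/2J controls (median -0.29, 2 passed), and of the choroid plexus and ependyma markers 9 of 11 (median -0.23, 0 passed). After risperidone in DBA/2J, 10 of 11 choroid plexus markers (median 0.285) and 7 of 9 oligodendrocyte markers (median 0.20) were higher, and 0 of either list passed. Other lists went against Gabrg1. Of the septum, pallidum and hypothalamus markers, 5 of 8 were higher in DBA/2J controls (median 0.09, 0 passed). After risperidone in DBA/2J 7 of 8 of them were lower (median -0.11, 0 passed), and 4 of the 8 lay below the array median on all arrays. Of the cortex excitatory neuron markers 7 of 9 were higher in DBA/2J controls (median 0.165, 1 passed). The part of glia, striatal neurons and these other regions in the Gabrg1 differences was not tested.

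**Figure D4:**
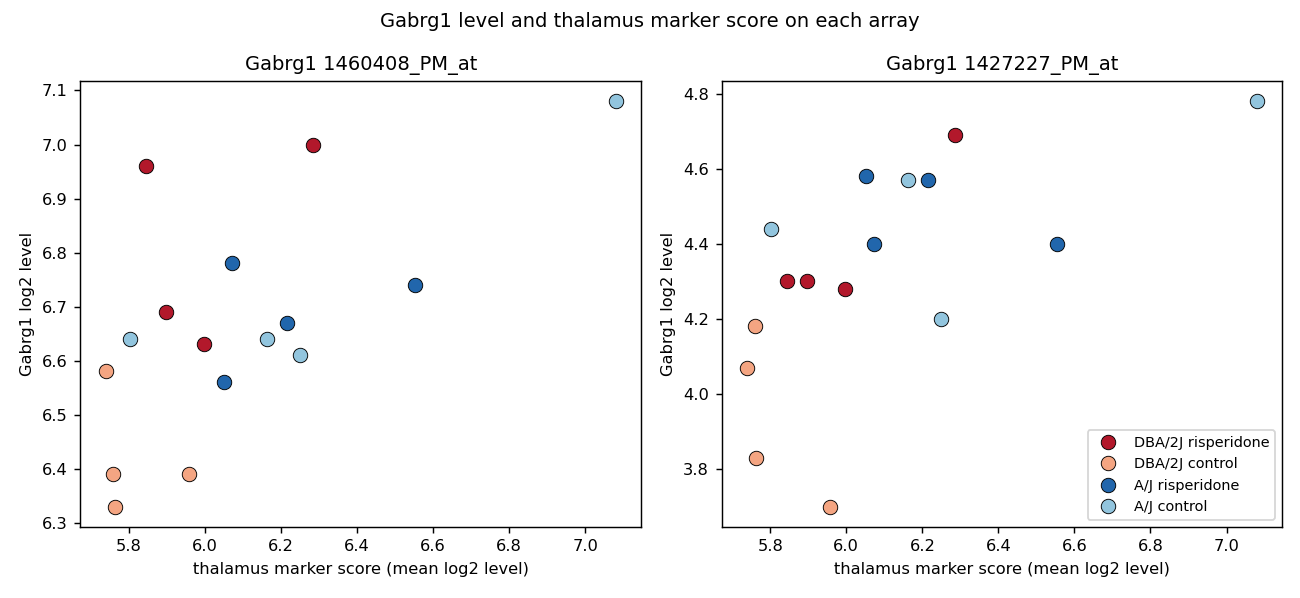
Log2 level of the 2 Gabrg1 probe sets (y axes) against the mean log2 level of 10 thalamus markers (x axes), with 1 point per array. DBA/2J control arrays sit at low scores (5.74 to 5.96) and low Gabrg1 levels, and 1 A/J control array has the highest score, 7.08, and the highest Gabrg1 level in both panels.

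The wider GABA system was described by 47 genes in 5 lists, of which 37 were measured, each by its highest probe set. None passed in any of the 6 comparisons. The median difference over the 37 was 0.02 after risperidone in DBA/2J, 0.01 after risperidone in A/J, 0.01 for DBA/2J minus A/J in control mice and 0 in risperidone mice. Over the highest probe sets of all 17097 genes these medians were 0.01, -0.01, 0 and 0.02.

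Of the other GABA-A and rho subunits, 8 of 12 were measured, and 7 of the 8 were lower after risperidone in DBA/2J (median -0.13) while 3 of 8 were lower in A/J (median 0.06). Gabrd, the delta subunit that partners alpha4, read 7.07, 7.77, 7.43 and 7.28 in DBA/2J risperidone mice, against 7.97, 7.86, 7.85 and 7.07 in DBA/2J control mice. In A/J it read 7.68, 7.74, 7.66 and 7.58 after risperidone, against 7.96, 7.81, 7.82 and 7.78 in control mice. These groups did not overlap, as for 2.08% of all probe sets in that direction. The mean effect was -0.24 ± 0.11 (adjusted p = 0.723), and DBA/2J control replicate 4 was the low control array, as for Gabra4 1433707_PM_at. With thalamus, cortex and choroid plexus scores as covariates the direction of Gabrd turned, to 0.155 in DBA/2J and 0.01 for the mean effect. Leaving out 1 array moved the DBA/2J difference of -0.30 either way. It was -0.19 without DBA/2J risperidone replicate 1 and -0.51 without DBA/2J control replicate 4, where the mean effect was -0.34. Gabrd did not pass in either case.

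Gabrr2, the rho2 subunit known from retina, was measured at a low level, 3.74 to 4.55. It was lower in DBA/2J risperidone mice, set against A/J risperidone mice (-0.45 ± 0.115, adjusted p = 0.0886). These groups did not overlap, as for 3.53% of all probe sets in that direction. The interaction of Gabrr2 was -0.47 ± 0.16 (adjusted p = 0.432). After risperidone it lay 0.275 ± 0.115 higher in A/J (adjusted p = 0.836). Gabre, the epsilon subunit, lay 0.195 ± 0.09 lower after risperidone in DBA/2J (adjusted p = 0.464). With the 3 region scores as covariates the difference of Gabre was -0.07.

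GABA synthesis, transport and breakdown had 7 of 9 genes measured, with 4 of 7 higher after risperidone in each strain and medians of 0.04 for DBA/2J and 0.01 for A/J. Gad1, which makes GABA, differed by 0.21 ± 0.11 between DBA/2J and A/J in risperidone mice (adjusted p = 0.586), and by 0.14 without the 5 arrays that stand apart. For GABA-B receptor subunits, 4 of 5 were measured, and 3 of 4 were lower after risperidone in DBA/2J (median -0.08) and 4 of 4 in A/J (median -0.10). Kctd8, an auxiliary GABA-B subunit, read 5.65, 5.67, 5.39 and 5.54 in A/J risperidone mice, against 5.97, 5.75, 6.21 and 5.80 in A/J control mice. Its groups did not overlap in A/J, as for 2.08% of all probe sets in that direction, and the difference was -0.37 ± 0.12 (adjusted p = 0.644).

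Anchoring and trafficking genes had 16 of 19 measured, with 13 of 16 higher after risperidone in DBA/2J (median 0.09) and 9 of 16 in A/J (median 0.02). Hap1, which returns internalised receptors to the membrane, read 9.65, 8.84, 8.95 and 9.03 in DBA/2J risperidone mice, against 8.56, 8.48, 8.49 and 8.77 in DBA/2J control mice. The groups did not overlap, as for 1.89% of all probe sets in that direction. DBA/2J risperidone replicate 1 was highest, and the difference was 0.54 ± 0.16 (adjusted p = 0.254). With the 3 region scores as covariates the Hap1 difference was 0.14 (adjusted p = 0.925). Gphn, the scaffold protein gephyrin, differed by 0.275 ± 0.197 after risperidone in DBA/2J and by -0.365 ± 0.197 in A/J, at a level of 4.09 to 5.42. The DBA/2J value of Gphn rested on DBA/2J control replicate 4, which read 4.09, and was 0.01 without it. Plcl1, a phospholipase-like partner of beta subunits, differed by 0.34 ± 0.13 after risperidone in DBA/2J (adjusted p = 0.36), and Ubqln1, which stabilises subunits, by 0.17 ± 0.08 (adjusted p = 0.459). Without DBA/2J risperidone replicate 4 the Plcl1 difference was 0.20.

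Between control mice, with each gene taken by its highest probe set, the smallest unadjusted p in the lists belonged to Slc12a5, the neuronal chloride exporter KCC2. It read 10.81, 10.80, 10.81 and 10.66 in DBA/2J, against 10.61, 10.59, 10.62 and 10.52 in A/J. Every DBA/2J array was above every A/J array, as for 4.91% of all probe sets, and the difference was 0.185 ± 0.07 (adjusted p = 0.17). Shisa7, an auxiliary subunit, differed by 0.275 ± 0.12 (adjusted p = 0.24), Plcl2 by 0.21 ± 0.09 (adjusted p = 0.252) and Trak2, a transport adaptor, by -0.30 ± 0.12 (adjusted p = 0.186). Without DBA/2J control replicate 4 the Trak2 difference was -0.18, and with the thalamus score as a covariate that of Shisa7 was 0.18 and that of Plcl2 0.07.

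Slc12a2, the chloride importer NKCC1, was lower in DBA/2J control mice by 2 of its 3 probe sets, neither of them the strongest. Its 1417623_PM_at probe set read 7.30, 7.18, 7.24 and 7.06 in DBA/2J control mice, against 7.60, 7.48, 7.68 and 7.52 in A/J control mice (-0.375 ± 0.086, adjusted p = 0.0166). Its 1448780_PM_at probe set read 6.48, 6.42, 6.29 and 6.43 in DBA/2J, against 6.76, 6.59, 7.05 and 6.72 in A/J (-0.375 ± 0.097, adjusted p = 0.0361). For both, the strains were apart, as for 4.42% of all probe sets in that direction. The strongest probe set, 1417622_PM_at, overlapped (-0.19 ± 0.11, adjusted p = 0.37). With the thalamus score as a covariate the Slc12a2 differences were -0.28 (adjusted p = 0.199) and -0.22 (adjusted p = 0.349), and without A/J control replicate 3 they were -0.34 (adjusted p = 0.0655) and -0.285 (adjusted p = 0.133).

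The genes most like each subunit within groups were taken from 8478 probe sets by the correlation of deviations from group means over 16 arrays. Gabrg1 was closest to Prkaca and Taf13 (r = 0.88 each), Gabra4 to Slk (0.92) and Pum2 (0.91), and Gabrb2 to Pik3ca (0.83) and Rorb (0.82). Gabra2 was closest to Stag1 (0.90) and Hivep3 (0.89), Gabra3 to Nap1l1 (0.91) and Gucy1a1 (0.90), Gabra5 to Nfib (0.87) and Dph6 (0.84), and Gabrb1 to Ndel1 (0.79) and Rusc2 (0.78). These are the highest of many correlations over arrays that share dissection and array effects, and they carry no test.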

How the data were processed

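Total RNA of 16 mice was measured on Affymetrix MG-430 PM arrays. Per the submitters' processing notes the authors used RMA, whose version is not named; their log2 levels were deposited with 2 decimals, and further upstream steps are not given in the sources used here. The 104 control probe sets among 45141 were removed, and of the rest 28898 name 1 gene, 551 several and 15588 none. Symbols came from the platform annotation.

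Using limma 3.58.1 (lmFit, eBayes) in R 4.3.3, 1 model with a mean for each of the 4 groups was fitted over all arrays, with two-sided tests and Benjamini-Hochberg adjustment over 45037 probe sets in each of 6 comparisons. Passing means an adjusted p under 0.05. Errors of differences are limma's SE, and SD is over 4 arrays. Replicates are labelled biological, and no 2 arrays held identical values, although 3 DBA/2J risperidone samples share a description. The labels give 8 mice a cage but not which mice shared one.

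Same-numbered arrays were not taken as pairs (mean correlation of deviations 0.0255 to 0.0745). Strain markers differed by at least 1.5 (log2) between control strains, with a level of at least 7 and an adjusted p under 0.01. Of genes other than the 7, those with a probe set past the test and the 4 with the smallest p in each comparison are named, and 2 most alike per member. Members, lists, markers and alternative settings were chosen with earlier results of these data known. The fit was tested on simulated data. Figures were drawn with matplotlib 3.10.9.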

Additional observations from a re-analysis of the deposited data

Results flagged for a closer look

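Among the probe sets named above, 14 of 128 groups of 4 arrays held 1 array far from the other 3, by Dixon's test at its 95% critical value, and chance alone marks about 1 group in 20. Of the subunit probe sets, 6 groups were marked. Gabra2 1421738_PM_at was high at 8.26 on DBA/2J risperidone replicate 3, and Gabra3 1421263_PM_at was high at 7.49 on DBA/2J control replicate 4. Gabra3 1436957_PM_at was low at 7.01 on A/J risperidone replicate 3, and Gabrb2 1428204_PM_at was low at 9.35 on A/J control replicate 4. Gabrg1 1427227_PM_at was high at 4.69 on DBA/2J risperidone replicate 4, and Gabrg1 1460408_PM_at was high at 7.08 on A/J control replicate 3.

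The other 8 marked groups belong to genes of the GABA lists. DBA/2J control replicate 4 was the marked array for Gabrd at 7.07, Slc12a5 at 10.66 and Trak2 at 6.55, low in all 3. A/J control replicate 3 was low for Gabre at 5.2 and high for Ubqln1 at 9.17, and A/J control replicate 4 was low for Gphn at 5.04. In A/J risperidone mice, Trak2 was low at 7.17 on replicate 1, where the other 3 arrays were equal, and Ubqln1 was low at 8.89 on replicate 2. The causes were not tested.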

How the results depend on the processing

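The Gabrg1 1427227_PM_at difference between control strains kept its direction in all 26 alternatives that tested it (-0.65 to -0.43) and passed in 18 of them. The count of subunit probe sets past the test in that comparison was 1, and it was 0 with only the 8 arrays compared (adjusted p = 0.0801), without the 5 arrays that stand apart (adjusted p = 0.118), with the thalamus score (adjusted p = 0.196) or 3 scores as covariates (adjusted p = 0.337), and with probe sets above the median level, where Gabrg1 1427227_PM_at is not tested. Leaving out 1 array at a time gave 0 to 1, and it was 0 without A/J control replicate 1 (adjusted p = 0.0551), A/J control replicate 3 (0.0761), DBA/2J control replicate 3 (0.0503) or DBA/2J control replicate 4 (0.0552). The cause of these losses was not tested. In the other 5 comparisons the count was 0 in every alternative run. With replicate number as a block the count stayed at 1 (adjusted p = 0.0361 for Gabrg1), and 1 or 2 of 4 same-numbered pairs correlated above 0.1 in each of 4 sets. Of 16 subunit differences of at least 0.2, 430 of 432 alternative values kept their sign. Gabrr2 passed in risperidone mice with array weights (adjusted p = 0.0423) and without DBA/2J control replicate 4 (adjusted p = 0.0473). Low signal limits Gabrg1 1427227_PM_at and Gabrr2, which lie below the array medians.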
